A study of Mus musculus with 9 samples.

Results

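The interferon-stimulated genes described here were 49 genes, chosen by symbol from a fixed list and found in all 49 cases among the 46517 genes of the deposited expression table. They are genes that type I and type II interferons switch on, and they were read in neutrophils from 3 compartments of tumor-bearing mice. The neutrophils came from C57BL/6 mice that had received an orthotopic transplant (OT) of pancreatic ductal adenocarcinoma (PDAC) cells in the pancreas, and were collected on day 27 after transplantation. They were sorted by flow cytometry as Dapi- CD45+ Ly6G+ Ly6C+ cells without the lymphoid markers CD3, B220 and NK1.1 from the bone marrow (labelled Ly6G.hi), the blood (Ly6G+) and the tumor (Ly6G+). Each compartment had 3 RNA sequencing libraries, each from pooled mice of an independent experiment, and all 9 libraries came from tumor-bearing animals. The tumor cells were a luciferase-expressing line derived from KPC mice, so each tumor grew from the same injected line.

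Interferons are secreted proteins that warn cells of infection. A type I interferon binds the receptor made of Ifnar1 and Ifnar2, whose kinases Jak1 and Tyk2 phosphorylate transcription factors such as Stat2, which enters the nucleus with Irf9 in a complex that binds a DNA element called ISRE. Type II interferon (Ifng) binds Ifngr1 and Ifngr2 and acts mainly through a different DNA element, called GAS. The genes so induced sense foreign nucleic acid, cut or trap viral RNA, tag proteins with Isg15, attack the vacuoles of intracellular microbes and change membranes so that viruses enter less easily.

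Sequence just before the start of a gene is where ISRE and GAS elements are often found, so the bases upstream of the members that changed most in the tumor are shown. The members were matched by symbol to RefSeq promoters of mouse build GRCm38.p6, and 41 of 49 had an entry. The ISRE letters searched were GAAANNGAA and the GAS letters TTCNNNGAA, on both strands, in the 250 bases before the start. At least 1 ISRE match was present in 19 of the 41 members (46.3%), against 8.18% of all 27025 genes with an entry. A GAS match was present in 10 of 41 (24.4%), against 8.13% of all genes. The guanylate-binding and immunity-related GTPases had an ISRE match in 6 of 7 members, and neither Schlafen gene had a match of either kind. From the 4 members with the largest rise and the 4 with the largest fall in either tumor contrast, the 6 whose window held at most 30 bases of an annotated exon are printed. The words rose and fell compare the tumor with bone marrow for Gbp3, Ifi47, Ifit2 and Ifitm6. For Oas3 and Ifitm2 they compare it with blood. Ifi47 and Ifitm6 did not pass the test between tumor and blood. Each line holds the 150 bases before the RefSeq start, 5′ to 3′ on the strand of the gene, and capitals mark the bases of an ISRE or GAS match.
Gbp3 (rose, chr3:142559894-142560043, plus strand): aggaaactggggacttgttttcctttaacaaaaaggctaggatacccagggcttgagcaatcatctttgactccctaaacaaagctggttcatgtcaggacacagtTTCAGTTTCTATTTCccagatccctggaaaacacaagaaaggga
Ifi47 (rose, chr11:49076437-49076586, plus strand): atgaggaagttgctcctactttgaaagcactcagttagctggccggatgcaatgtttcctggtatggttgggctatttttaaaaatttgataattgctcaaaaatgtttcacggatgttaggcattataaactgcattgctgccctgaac
Ifit2 (rose, chr19:34550544-34550693, plus strand): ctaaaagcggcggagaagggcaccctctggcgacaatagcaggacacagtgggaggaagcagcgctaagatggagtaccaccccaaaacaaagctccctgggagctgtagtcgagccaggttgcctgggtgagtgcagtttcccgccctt
Oas3 (fell, chr5:120777660-120777809, minus strand): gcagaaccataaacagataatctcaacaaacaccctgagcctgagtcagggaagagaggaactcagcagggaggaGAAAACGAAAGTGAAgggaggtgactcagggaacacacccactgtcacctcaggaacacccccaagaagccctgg
Ifitm2 (fell, chr7:140955962-140956111, minus strand): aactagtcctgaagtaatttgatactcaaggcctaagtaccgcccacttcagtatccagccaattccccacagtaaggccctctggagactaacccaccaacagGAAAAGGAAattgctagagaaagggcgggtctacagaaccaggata
Ifitm6 (fell, chr7:141016893-141017042, minus strand): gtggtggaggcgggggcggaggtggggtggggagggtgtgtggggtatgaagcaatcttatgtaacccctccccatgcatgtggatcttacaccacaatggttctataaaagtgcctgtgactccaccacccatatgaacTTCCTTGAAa
Gbp3 and Oas3 each held 2 overlapping ISRE matches, and they changed in opposite directions in the tumor. Ifitm2, which fell, held 1 ISRE match, Ifitm6 held 1 GAS match, and the windows of Ifi47 and Ifit2 held none. A match is a description of the letters and not a bound site.

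Expression was given as log2 FPKM, the log2 of fragments scaled by gene length and library size. Whole read counts could be recovered for each gene and library, and the 9 libraries held 4580807 to 7949367 reads on genes. The library sizes that the authors had used were 0.796 to 0.881 times these totals in bone marrow and blood and 1.08 to 1.22 times in the tumor. With the plain totals in their place, the median gene moved by 0.45 on the log2 scale towards the tumor in both tumor contrasts, so the counts for the members and for the pathway lists are given both ways. The 8 neutrophil markers were read in all libraries, at 38100 to 52700 RPM (reads scaled to a common library size) in bone marrow and blood and 8490 to 10500 in the tumor. Bone marrow held 95700 to 110000 RPM on the 8 markers of immature neutrophils, the blood libraries held 3700 to 4570 and those of the tumor 6560 to 9950. The tumor libraries also held markers of tumor epithelium (2510 to 4780 RPM, at most 172 in blood), fibroblasts (964 to 1110, at most 9.72 elsewhere) and acinar cells (438 to 1720, at most 8.95 elsewhere). The 11 monocyte and macrophage markers summed to 1570 to 1890 RPM in bone marrow and blood and to 369 to 538 in the tumor, but they did not move together. Of the 8 tested, 1 was higher and 2 lower in the tumor than in blood, and 1 was higher and 3 lower than in bone marrow. Ms4a7 was without a read in every blood library and C1qc in blood replicates 1 and 2, and all 11 were read in each tumor library. The part of these other cells in the differences below was not tested. Tumor replicate 3 had the lowest value of the 3 tumor libraries in 42 of the 44 members that could be tested (95.5%), against 38.9% of all genes, and it also had the highest epithelial and acinar values. Bone marrow replicate 3 was lowest in its compartment in 33 of 44 members (39.5% of all genes) and blood replicate 3 in 29 of 44 (34.6% of all genes). Blood, where most members peaked, also held the most reads on markers of platelets (524 to 735 RPM, at most 13.3 elsewhere), red cells (280 to 567, at most 126 elsewhere) and lymphocytes (98.7 to 169, at most 55.3 elsewhere), and their part was not tested either.

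Interferon-stimulated genes were highest in blood neutrophils as a set. Of the 44 members tested, 33 (75%) were higher in blood than in bone marrow, where 20.6% of all 7794 genes tested were higher, and 3 (6.82%) were lower, where 23.6% of all genes were lower. The median log2 fold change was 1.22 over the members and -0.04 over all genes. From blood to tumor the members moved mostly down: 22 (50%) were lower in the tumor, where 34.5% of all genes were lower, and 4 (9.09%) were higher, where 28.1% of all genes were higher. The median log2 fold change was -0.68 over the members and -0.17 over all genes. Against bone marrow, 21 members (47.7%) were higher in the tumor, where 22.4% of all genes were higher, and 12 (27.3%) were lower, where 32.9% of all genes were lower. The median was 0.33, against -0.21 over all genes. These calls are from limma with an adjusted p under 0.05 over all genes, and the tumor contrasts share the tumor libraries. Where library overlap was counted in place of a test, the blood libraries lay above all bone marrow libraries in 35 of 44 members (27.8% of all genes) and below in 3 (31% of all genes). The tumor libraries lay above blood in 4 (30% of all genes), below blood in 26 (37%), above bone marrow in 21 (26.2%) and below bone marrow in 12 (37.7%). With plain library totals these tumor counts were 10 (40.7% of all genes), 19 (26.8%), 28 (39.2%) and 7 (25.2%). In these bulk samples fewer cells with a transcript and less RNA per cell cannot be told apart.

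With plain library totals 8 members were higher and 18 lower in the tumor than in blood (37.5% and 24.4% of all genes). Against bone marrow 28 were higher and 6 lower in the tumor (33.4% and 21% of all genes). Blood against bone marrow gave 34 higher and 3 lower (21.2% and 23.1% of all genes). Relative to the median gene the members stood 0.51 lower in the tumor than in blood and 0.54 higher than in bone marrow. A change of library scaling moves all genes of a library alike. These relative values are therefore the same under either scaling by construction, and they do not test the choice of scaling. The counts without tumor replicate 3 were 6 higher and 21 lower against blood and 24 higher and 8 lower against bone marrow. Of all 7794 genes, 2085 were then higher and 2578 lower against blood, and 1650 and 2431 against bone marrow. In 37 of the 44 members each of the 9 libraries was above the expression limit (log2 FPKM over 0), a limit that 3679 of all genes met. Among these 37, 30 were higher in blood than in bone marrow (26.5% of the 3679 genes) and 3 lower (22.6%), 1 was higher in the tumor than in blood (Rsad2; 20.2%) and 22 lower (45%), and 16 were higher in the tumor than in bone marrow (17.8%) and 11 lower (41.6%). The other 7 (Ifih1, Eif2ak2, Ifit2, Parp14, Bst2, Xaf1 and Gbp3) entered the test through some libraries only. Ifit2, Bst2 and Gbp3, which are 3 of the 4 rises from blood to tumor, are among them. A member that entered only through the compartments where it is high was in part selected for its difference, so its p-values are no independent support. This holds for Ifih1 and Gbp3 against bone marrow, for Ifit2 in the tumor and for the fall of Eif2ak2 in the tumor, where all its libraries were below the limit. It holds in part for Parp14 against bone marrow and Bst2 against blood, each above the limit in 7 libraries.

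**Figure D1:**
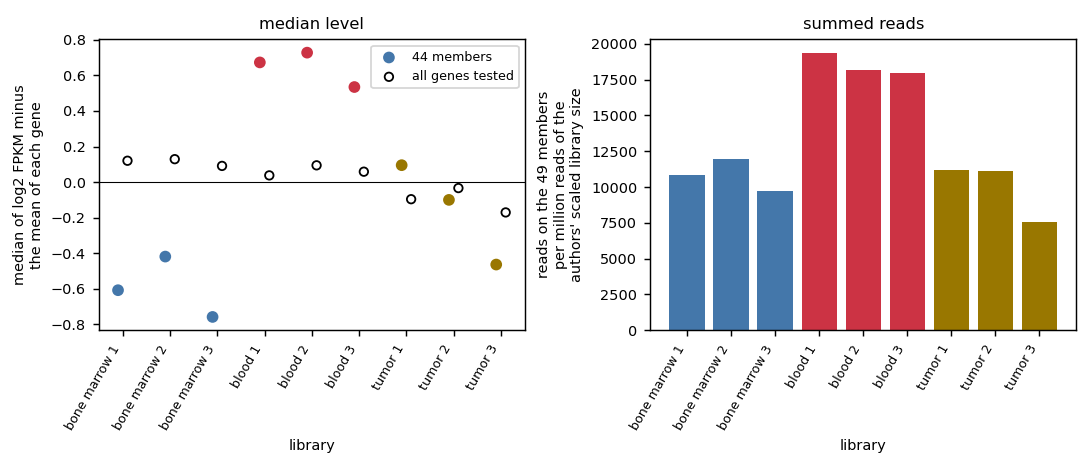
Left, for each library on the horizontal axis, the median over members (filled) and over all genes tested (open) of log2 FPKM minus the mean of each gene over 9 libraries. Right, reads on the 49 members in RPM of the authors’ scaled library size. Blood libraries sit highest in both panels, at 17965 to 19346 RPM, and tumor replicate 3 is the lowest library by reads at 7554.

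In summed reads, members took 10869, 11953 and 9742 RPM in the bone marrow libraries, 19346, 18149 and 17965 in blood, and 11192, 11134 and 7554 in the tumor. The blood libraries lay above all others, and those of bone marrow and tumor overlapped.

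**Figure D2:**
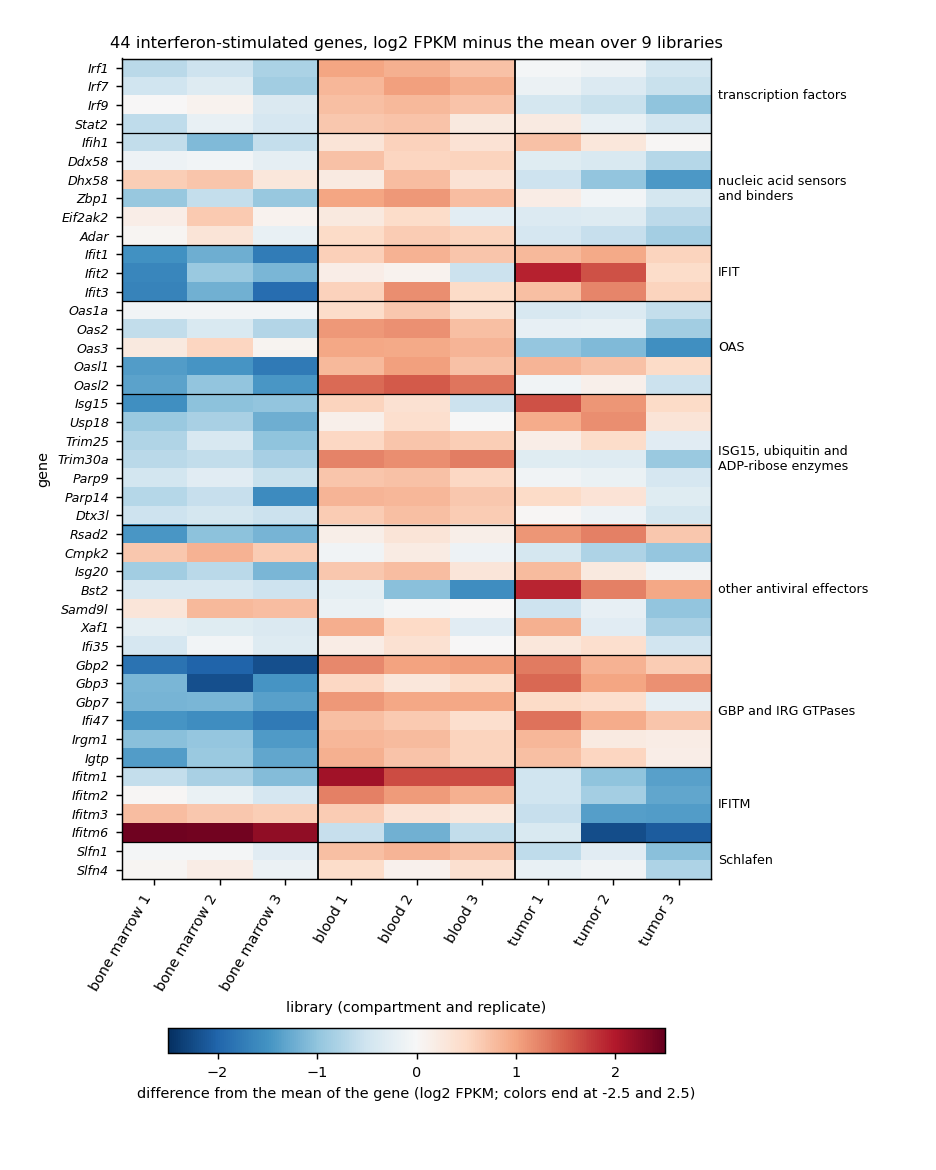
Each row is 1 of the 44 members tested, grouped by role, each column a library, and the color is log2 FPKM minus the mean of that gene over 9 libraries (red above, blue below). Most rows are reddest in blood, the Ifit and GTPase rows are red in blood and tumor, and Ifitm6 is red in bone marrow.

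Most members fell into a few patterns of calls over the contrasts. The share of all genes with each pattern was not counted. The first pattern held 18 members that were higher in blood than in bone marrow and lower in the tumor than in blood. In 4 of these (Irf1, Zbp1, Oasl2 and Gbp7) the tumor stayed above bone marrow, in 8 the tumor and bone marrow did not differ past the threshold, and in 6 (Irf9, Adar, Oas1a, Oas3, Ifitm2 and Slfn1) the tumor was below both. The second held 13 members that were higher in blood than in bone marrow, did not pass the test between tumor and blood, and were all higher in the tumor than in bone marrow. These were Ifih1, Ifit1, Ifit3, Oasl1, Isg15, Usp18, Trim25, Parp14, Isg20, Gbp2, Ifi47, Irgm1 and Igtp. A test not passed does not show equal levels. With plain totals Ifi47, Ifit1, Isg15 and Usp18 passed as higher in the tumor than in blood. Rsad2 and Gbp3 were higher at each step. Xaf1 and Ifi35 passed in no contrast.

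**Figure D3:**
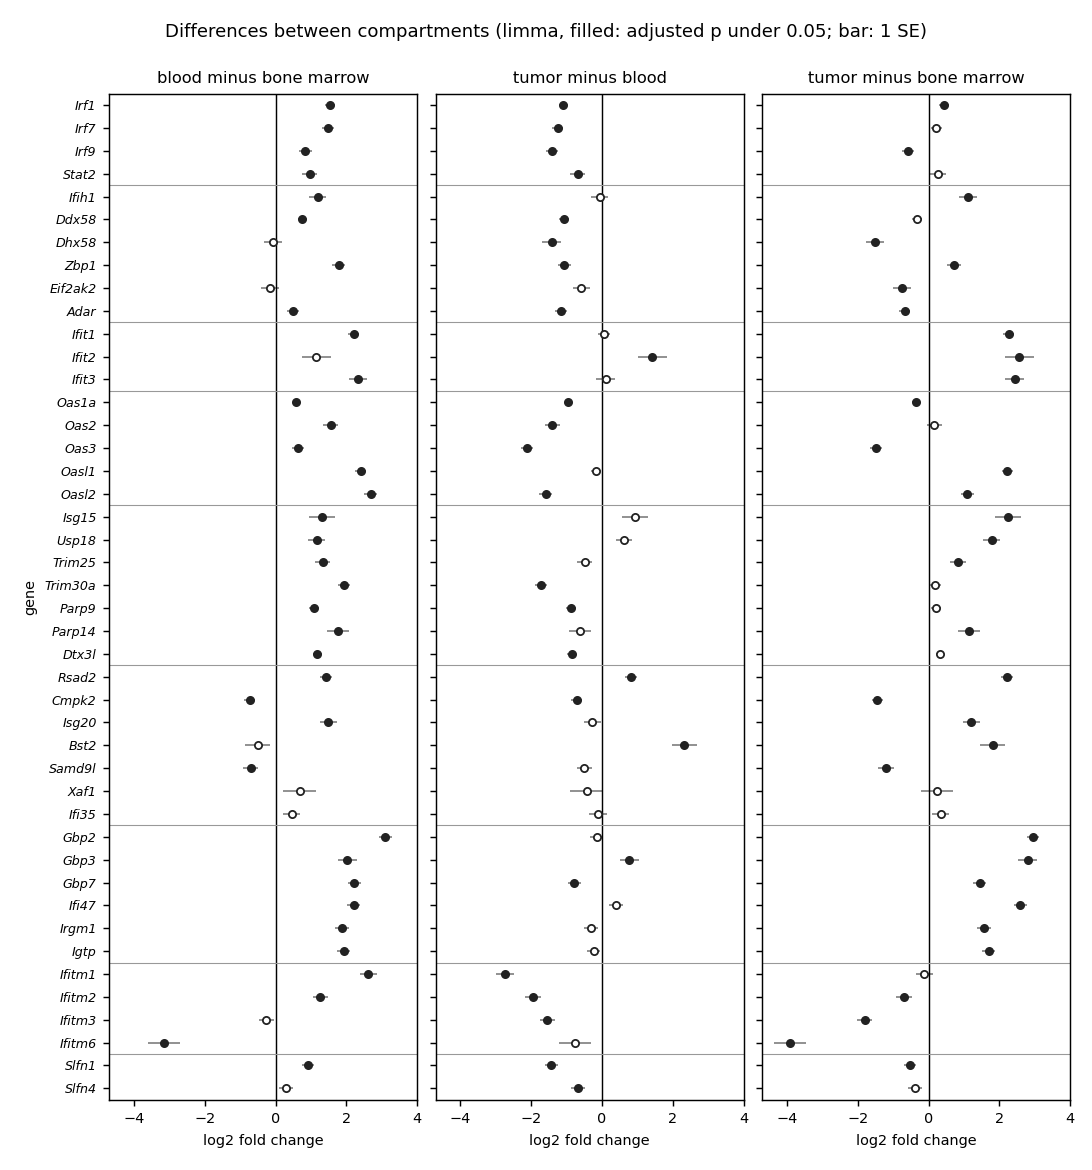
Log2 fold change of each of 44 members (rows, grouped by role) for blood minus bone marrow, tumor minus blood and tumor minus bone marrow, from limma, with 1 standard error. Filled points had an adjusted p under 0.05: 33 to the right and 3 to the left in the first panel, 4 and 22 in the second, 21 and 12 in the last.

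The transcription factors that carry the interferon signal rose in blood and fell in the tumor, 4 of 4 in each step, with Stat2 losing its fall under plain totals. Irf7, which amplifies type I interferon production, was read at 5.43, 5.60 and 5.04 log2 FPKM in bone marrow, 6.75, 6.94 and 6.81 in blood and 5.78, 5.58 and 5.37 in the tumor. The blood libraries lay apart from the rest, and bone marrow and tumor overlapped. Irf7 was 2.79-fold higher in blood than in bone marrow (adjusted p = 0.000298) and 2.39-fold lower in the tumor than in blood (log2 fold change -1.26 ± 0.16 SE, adjusted p = 0.000289). Irf1, a factor strongly induced by interferon gamma, was read at 4.94, 5.10 and 4.83 in bone marrow, 6.61, 6.51 and 6.35 in blood and 5.56, 5.48 and 5.15 in the tumor, so that no library of a compartment overlapped another compartment. It fell by 1.09 from blood to tumor (adjusted p = 0.000223) and was 0.44 ± 0.13 SE above bone marrow (adjusted p = 0.0232), a call lost in 6 of 20 alternatives. Irf9, a DNA-binding partner of Stat2, was read at 5.02, 5.10 and 4.64 in bone marrow, 5.75, 5.81 and 5.72 in blood and 4.57, 4.45 and 3.997 in the tumor. It was lowest in the tumor, 2.68-fold below blood (adjusted p = 0.000212) and 1.49-fold below bone marrow (adjusted p = 0.0219), the latter lost with plain totals (adjusted p = 0.457).

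Among the 6 sensors and binders of nucleic acid, 4 were higher in blood than in bone marrow, 4 were lower in the tumor than in blood, and none was higher in the tumor than in blood under either scaling. Dhx58 (LGP2), a regulator of RNA sensing, was read at 2.86, 2.92 and 2.51 log2 FPKM in bone marrow, 2.46, 2.999 and 2.59 in blood and 1.72, 1.25 and 0.79 in the tumor. Bone marrow and blood overlapped and the tumor lay below both, 2.69-fold below blood (adjusted p = 0.00163) and 2.84-fold below bone marrow (adjusted p = 0.00151). Adar, which edits double-stranded RNA, was read at 1.65, 1.92 and 1.42 in bone marrow, 2.08, 2.23 and 2.15 in blood and 1.18, 1.03 and 0.75 in the tumor. Its tumor libraries lay below the rest. It was 2.25-fold lower in the tumor than in blood (adjusted p = 0.000491) and 1.60-fold lower than in bone marrow (adjusted p = 0.0093), the latter lost with plain totals (adjusted p = 0.206). Zbp1, a sensor of Z-form nucleic acid, was read at 1.25, 1.60 and 1.26 in bone marrow, 3.19, 3.29 and 2.97 in blood and 2.38, 2.13 and 1.76 in the tumor, with no overlap between compartments. Ifih1 (MDA5), a sensor of long double-stranded RNA, was read at -0.66, -1.14 and -0.65 in bone marrow, 0.27, 0.53 and 0.31 in blood and 0.68, 0.24 and -0.02 in the tumor. Blood and tumor overlapped above bone marrow. It was 2.27-fold higher in blood than in bone marrow (adjusted p = 0.00609) and 2.16-fold higher in the tumor than in bone marrow (adjusted p = 0.00585), with a log2 fold change of -0.07 ± 0.25 SE between tumor and blood. Of the compartments, only blood was above the expression limit in all 3 libraries. The bone marrow libraries of Ifih1 were all below it, so its p-values against bone marrow are no independent support. Eif2ak2 (PKR), a kinase that stops translation, did not pass between blood and bone marrow (log2 fold change -0.16).

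The Ifit genes, whose products bind foreign RNA, were all higher in the tumor than in bone marrow under either scaling. Ifit1 was read at 1.60, 1.90 and 1.37 log2 FPKM in bone marrow, 3.71, 3.97 and 3.803 in blood and 3.93, 4.06 and 3.68 in the tumor. Blood and tumor overlapped and both lay above bone marrow, by 4.61-fold in blood (adjusted p = 4.9e-05) and 4.80-fold in the tumor (adjusted p = 1.8e-05). Between tumor and blood the log2 fold change was 0.06 (adjusted p = 0.765), and 0.51 with plain totals (adjusted p = 0.0065), where it passed. Ifit3 was read at 2.21, 2.68 and 1.99 in bone marrow, 4.46, 5.05 and 4.37 in blood and 4.64, 5.12 and 4.45 in the tumor. It had the same order, 5.03-fold higher in blood (adjusted p = 0.000346) and 5.41-fold higher in the tumor (adjusted p = 0.000147) than in bone marrow. Ifit2 was read at -1.21, -0.51 and -0.71 in bone marrow, 0.60, 0.52 and -0.10 in blood and 2.35, 2.02 and 0.89 in the tumor. Its compartments did not overlap, and the tumor was 2.67-fold above blood (log2 fold change 1.42 ± 0.41 SE, adjusted p = 0.0162). That call was lost without blood replicate 3, tumor replicate 1 or tumor replicate 2, and without the filter, with an adjusted p of up to 0.0843. Ifit2 passed the expression limit in 5 libraries only.

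The oligoadenylate synthetases (OAS), which sense double-stranded RNA and activate RNase L, and the related Oasl genes split in the tumor. All 5 were higher in blood than in bone marrow, 4 fell in the tumor and Oasl1 did not pass. Oas3 was read at 4.54, 4.84 and 4.38 log2 FPKM in bone marrow, 5.26, 5.24 and 5.15 in blood and 3.34, 3.19 and 2.78 in the tumor. The tumor libraries lay far below the rest, 4.33-fold below blood (log2 fold change -2.11 ± 0.17 SE, adjusted p = 2.6e-05) and 2.79-fold below bone marrow (adjusted p = 0.000188). Oasl1 was read at 1.41, 1.33 and 1.04 in bone marrow, 3.61, 3.83 and 3.54 in blood and 3.65, 3.55 and 3.28 in the tumor. Its blood and tumor libraries overlapped, and its tumor level was 4.69-fold above bone marrow (adjusted p = 1.3e-05). Oasl2 rose most of the group in blood, 6.43-fold (adjusted p = 3.9e-05), and its tumor libraries at 5.47, 5.67 and 5.02 lay between bone marrow at 4.22, 4.57 and 4.09 and blood at 6.96, 7.08 and 6.89. Oas1a was read at 2.66, 2.65 and 2.66 in bone marrow, 3.18, 3.42 and 3.14 in blood and 2.34, 2.40 and 2.14 in the tumor. It was lower in the tumor than in both (log2 fold change -0.36 ± 0.11 SE against bone marrow, adjusted p = 0.0221), but had a log2 fold change of 0.09 there with plain totals (adjusted p = 0.476). Oas2 lay 2.65-fold lower in the tumor than in blood (adjusted p = 0.000643).

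Isg15 and the enzymes of protein tagging were higher in blood than in bone marrow in 7 of 7 members tested, and none was lower in the tumor than in bone marrow. Isg15, the ubiquitin-like tag, was read at 1.38, 1.89 and 1.93 log2 FPKM in bone marrow, 3.47, 3.29 and 2.39 in blood and 4.52, 4.02 and 3.39 in the tumor. Tumor and bone marrow libraries were apart and blood overlapped the tumor. Isg15 was 4.74-fold higher in the tumor than in bone marrow (adjusted p = 0.00124), and its difference from blood was 0.93 ± 0.37 SE (adjusted p = 0.0564), which passed with plain totals. Usp18, which removes Isg15 and damps the receptor, was read at 0.36, 0.49 and 0.08 in bone marrow, 1.42, 1.71 and 1.29 in blood and 2.22, 2.45 and 1.62 in the tumor. Tumor and blood overlapped. Usp18 was 3.45-fold higher in the tumor than in bone marrow (adjusted p = 0.000444), and its difference from blood was 0.62 ± 0.24 SE (adjusted p = 0.0524), which also passed with plain totals. Trim25, a ubiquitin ligase that activates RNA sensing, was read at 2.53, 2.88 and 2.27 in bone marrow, 3.801, 3.97 and 3.89 in blood and 3.44, 3.75 and 2.99 in the tumor. Its compartments did not overlap, and it was 1.78-fold higher in the tumor than in bone marrow (adjusted p = 0.0121).

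Trim30a, another ligase of that group, behaved differently. It was read at 2.12, 2.19 and 1.97 log2 FPKM in bone marrow, 4.04, 3.95 and 4.07 in blood and 2.49, 2.48 and 1.88 in the tumor. Its tumor libraries overlapped bone marrow and lay 3.34-fold below blood (log2 fold change -1.74 ± 0.17 SE, adjusted p = 6.95e-05). Parp9 was read at 1.02, 1.19 and 0.91 in bone marrow, 2.17, 2.20 and 1.99 in blood and 1.38, 1.30 and 1.05 in the tumor. Parp9 and Dtx3l, whose proteins form an ADP-ribosylating ubiquitin ligase, were 1.84-fold (adjusted p = 0.000892) and 1.81-fold (adjusted p = 0.000577) lower in the tumor than in blood. The 2 genes lie on opposite strands of chromosome 16 with overlapping exons, and a library preparation that does not keep strand cannot assign the shared reads. Parp14, another ADP-ribose enzyme, was read at -0.04, 0.09 and -0.90 in bone marrow, 1.54, 1.51 and 1.35 in blood and 1.16, 1.02 and 0.38 in the tumor. Its compartments did not overlap, and it was 3.36-fold higher in blood than in bone marrow (adjusted p = 0.00288).

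Among the 7 other antiviral effectors tested, Bst2 and Rsad2 rose from blood to tumor. Bst2 (tetherin), which holds budding virus on the membrane, was read at 0.60, 0.60 and 0.47 log2 FPKM in bone marrow, 0.75, -0.04 and -0.55 in blood and 2.90, 2.25 and 1.96 in the tumor. The tumor libraries lay above all others, 4.99-fold above blood (log2 fold change 2.32 ± 0.36 SE, adjusted p = 0.000733) and 3.52-fold above bone marrow (adjusted p = 0.00323). Both calls held in the 19 alternatives that tested Bst2, but the filter at log2 FPKM over 2 left it out. The counts behind it were low, 10 to 32 reads in bone marrow and blood and 98 to 147 in the tumor. Rsad2 (viperin), an enzyme that makes a chain-terminating nucleotide, was read at 2.71, 3.13 and 3.003 in bone marrow, 4.30, 4.47 and 4.31 in blood and 5.26, 5.42 and 4.83 in the tumor. Its compartments followed each other without overlap, 2.67-fold up in blood (adjusted p = 0.000467) and a further 1.75-fold in the tumor (adjusted p = 0.00384).

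Cmpk2, the mitochondrial nucleotide kinase encoded beside Rsad2, went the other way. It was read at 4.74, 4.95 and 4.72 log2 FPKM in bone marrow, 3.99, 4.28 and 3.94 in blood and 3.63, 3.31 and 3.12 in the tumor, and the compartments did not overlap. It fell by 0.73 from bone marrow to blood (adjusted p = 0.0063) and by 0.72 from blood to tumor (adjusted p = 0.00394), the latter lost with plain totals (adjusted p = 0.105). Rsad2 (chromosome 12, 26442746 to 26456452, minus strand) and Cmpk2 (chromosome 12, 26469204 to 26479837, plus strand) face away from each other with 12752 bases between their starts. Isg20, an RNA exonuclease, was read at 1.72, 1.91 and 1.44 in bone marrow, 3.26, 3.37 and 2.90 in blood and 3.38, 2.83 and 2.51 in the tumor. Blood and tumor overlapped above bone marrow, and Isg20 was 2.80-fold higher in blood (adjusted p = 0.00193) and 2.32-fold higher in the tumor (adjusted p = 0.00345) than in bone marrow. Samd9l, a translation inhibitor, was 1.62-fold lower in blood (adjusted p = 0.0301) and 2.30-fold lower in the tumor (adjusted p = 0.0019) than in bone marrow, and the first call was lost in 7 of 20 alternatives.

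The guanylate-binding proteins (GBP) and immunity-related GTPases (IRG) attack vacuoles that hold microbes and are classical targets of interferon gamma. All 6 tested were higher in blood and in the tumor than in bone marrow, under either scaling, and their median log2 fold changes were 2.12 in blood and 2.15 in the tumor. Gbp2 was read at 1.63, 1.48 and 1.28 log2 FPKM in bone marrow, 4.68, 4.48 and 4.53 in blood and 4.77, 4.35 and 4.10 in the tumor. Blood and tumor overlapped and bone marrow lay far below, by 8.57-fold against blood (log2 fold change 3.10 ± 0.18 SE, adjusted p = 2.0e-05) and 7.71-fold against the tumor (log2 fold change 2.95 ± 0.18 SE, adjusted p = 8.2e-06). Gbp3 was read at -0.15, -1.21 and -0.49 in bone marrow, 1.51, 1.28 and 1.44 in blood and 2.42, 1.98 and 2.14 in the tumor. It rose at each step without overlap, but its tumor-to-blood difference of 0.77 ± 0.27 SE (adjusted p = 0.0366) was lost in 8 of the 19 alternatives that tested it, among them the fits without any 1 of the blood libraries, bone marrow replicate 3 or tumor replicate 1 or 3. The filter at log2 FPKM over 2 left Gbp3 out.

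Gbp7, its neighbour on chromosome 3, was read at 1.64, 1.67 and 1.44 log2 FPKM in bone marrow, 3.89, 3.77 and 3.77 in blood and 3.29, 3.22 and 2.58 in the tumor. Its compartments did not overlap. Gbp7 was 4.68-fold higher in blood than in bone marrow (adjusted p = 8.5e-05) and then fell by 0.78 in the tumor (adjusted p = 0.00659), a fall lost with plain totals (adjusted p = 0.0972). Igtp was read at 2.65, 3.11 and 2.74 in bone marrow, 4.94, 4.75 and 4.59 in blood and 4.78, 4.58 and 4.21 in the tumor, where blood and tumor overlapped. Ifi47, Irgm1 and Igtp, the 3 IRG genes, were 6.04-fold, 2.94-fold and 3.24-fold higher in the tumor than in bone marrow, and none passed between tumor and blood with the authors’ scaling. Ifi47 had a log2 fold change of 0.39 there (adjusted p = 0.108) and of 0.84 with plain totals (adjusted p = 0.00404), and it also passed with quantile normalization and without tumor replicate 3. The exons of Igtp overlap those of Irgm2 on the same strand, and those of Ifi47 overlap Olfr56, so that reads could be shared between them.

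The Ifitm genes, which code for membrane proteins that hinder viral entry, included none that was higher in the tumor than in blood or bone marrow, under either scaling. Ifitm1 was read at 5.88, 5.67 and 5.38 log2 FPKM in bone marrow, 8.57, 8.10 and 8.12 in blood and 5.97, 5.48 and 5.12 in the tumor. It had the largest fall from blood to tumor of the 44 members, 6.69-fold (log2 fold change -2.74 ± 0.24 SE, adjusted p = 4.2e-05), after a 6.14-fold rise in blood (adjusted p = 0.000137), and bone marrow and tumor overlapped. Ifitm2 was read at 8.19, 7.998 and 7.76 in bone marrow, 9.42, 9.24 and 9.06 in blood and 7.66, 7.33 and 6.87 in the tumor. It was 3.87-fold lower in the tumor than in blood (adjusted p = 0.000129) and 1.62-fold lower than in bone marrow (adjusted p = 0.0256), the latter lost with plain totals (adjusted p = 0.319). Ifitm3 was read at 7.36, 7.25 and 7.199 in bone marrow, 7.21, 6.95 and 6.87 in blood and 6.005, 5.20 and 5.18 in the tumor. Bone marrow and blood overlapped, and the tumor was 2.92-fold below blood (adjusted p = 0.000484) and 3.497-fold below bone marrow (adjusted p = 0.000267), calls that did not depend on the scaling.

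Ifitm6 fell from bone marrow to blood, the 1 such call in the group. It was read at 10.18, 10.16 and 9.96 log2 FPKM in bone marrow, 7.17, 6.55 and 7.13 in blood and 7.35, 5.52 and 5.66 in the tumor. The bone marrow libraries lay above all others, 8.89-fold above blood (adjusted p = 0.00112) and 15.2-fold above the tumor (log2 fold change -3.92 ± 0.46 SE for tumor minus bone marrow, adjusted p = 0.000209), and tumor replicate 1 lay above the other tumor libraries. Without that library the log2 fold change was -4.51 against bone marrow, and the difference between tumor and blood, -0.77 with all libraries (adjusted p = 0.175), was -1.36 and passed. The 8 markers of immature neutrophils were also highest in bone marrow, and 8 of 8 were lower in blood and in the tumor. Their part in the Ifitm6 difference was not tested. The 4 Ifitm genes lie on chromosome 7 between 140954837 (Ifitm2) and 141017924 (Ifitm6).

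The Schlafen genes of the list, Slfn1 and Slfn4, regulate growth and differentiation of lymphoid and myeloid cells. Slfn4 was read at 8.05, 8.20 and 7.87 log2 FPKM in bone marrow, 8.47, 8.11 and 8.42 in blood and 7.82, 7.94 and 7.23 in the tumor. The tumor lay below blood without overlap (log2 fold change -0.67 ± 0.20 SE, adjusted p = 0.0195), a call lost with plain totals (adjusted p = 0.283), and overlapped bone marrow. Slfn1 was read at 7.32, 7.33 and 7.09 in bone marrow, 8.14, 8.23 and 8.12 in blood and 6.73, 7.10 and 6.34 in the tumor. Tumor and bone marrow overlapped. Slfn1 was 1.89-fold higher in blood than in bone marrow (adjusted p = 0.00492) and 2.71-fold lower in the tumor than in blood (adjusted p = 0.000266). Its difference from bone marrow (1.44-fold lower in the tumor, adjusted p = 0.0399) was lost in 12 of 20 alternatives.

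**Figure D4:**
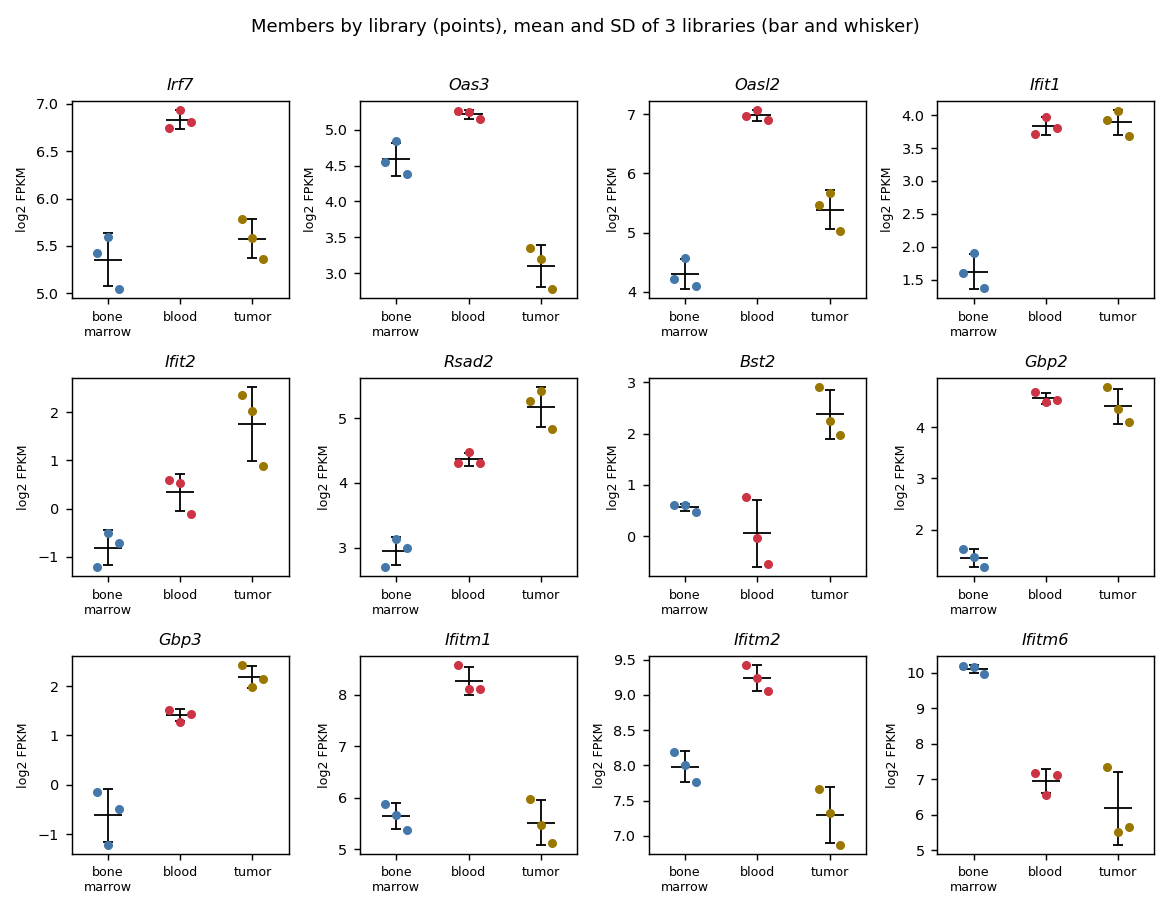
Log2 FPKM of 12 members by compartment, with a point for each library and the mean and SD of 3 libraries. Irf7, Oasl2 and Ifitm1 peak in blood, Ifit1 and Gbp2 overlap between blood and tumor, Rsad2 and Gbp3 climb to the tumor, and Ifitm6 peaks in bone marrow.

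Levels can be compared between genes only per length of exon. On that scale, in FPKM computed with exon length, Slfn4 was the most abundant member in blood at 1233 and in the tumor at 786, and Ifitm6 in bone marrow at 1313. Ifitm2 followed in blood at 1042 and Slfn1 in the tumor at 338. By this level Oasl2 ranked 12 among the 49 members in bone marrow, 5 among those in blood and 8 in the tumor.

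Of the 49 members, 5 did not reach the expression limit in 3 libraries and were not tested, and their reads are given for the 3 libraries of each compartment. The limit is on FPKM by genomic span, which is 83633 bases for Herc6 and 28367 for Gbp5. These 2 genes therefore missed it with more tumor reads than Bst2, which was tested. Gbp5 had 0, 12 and 2 reads in bone marrow, 59, 25 and 46 in blood and 260, 272 and 196 in the tumor. Herc6, the main ligase for Isg15 in mice, had 58, 51 and 33 reads in bone marrow, 101, 109 and 83 in blood and 250, 241 and 149 in the tumor. In limma-voom on the recovered reads Gbp5 passed in each contrast (adjusted p = 0.00219 for tumor against blood) and Herc6 was higher in the tumor than in bone marrow (adjusted p = 0.000576). In the log2 FPKM fit without the filter Gbp5 passed between tumor and bone marrow (adjusted p = 0.0258) but not between tumor and blood (adjusted p = 0.698) or blood and bone marrow (adjusted p = 0.125), and Herc6 again passed between tumor and bone marrow (adjusted p = 0.0151). Ifi44 had 0, 4 and 14 reads in bone marrow, 0, 0 and 1 in blood and 42, 16 and 33 in the tumor (adjusted p = 0.00215 for tumor against blood in limma-voom and 0.0641 in the fit without the filter). Mx1 and Mx2, GTPases that trap viral nucleoproteins, had at most 17 and 10 reads in any library, and Mx2 had none in bone marrow, which allows up to 3 reads in a library. With that limit set per library, the mean of the tumor libraries was at least 2.53-fold higher than the bone marrow limit.

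In 15 pairs of adjacent members less than 100 kb apart, 7 had both genes called between tumor and blood, and 2 of these went in opposite directions: Rsad2 with Cmpk2, and Gbp3 with Gbp7. Of all genes tested, 28.1% were called higher and 34.5% lower in the tumor than in blood. Pairs of other genes were not counted, so these counts are a description only. With plain totals 4 pairs had both genes called and 0 went in opposite directions, since the falls of Cmpk2 and Gbp7 no longer passed. Among the others, Oas2 and Oas3 fell together, as did Ifitm2 with Ifitm1, Ifitm1 with Ifitm3, Slfn1 with Slfn4, and Dtx3l with Parp9. Adjacent genes on the same chromosome are not independent of each other.

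Other genes of the pathway, from lists kept apart from the members, were read in the same libraries. The interferons themselves were nearly unread: 12 of 14 ligand genes, Ifnb1 included, had no read in any library, Ifng had 2 reads in 1 blood library and 0 elsewhere, and the most for any ligand gene was 4 reads (Ifnk). A count of 0 allows up to 3 reads in a library. The receptors and their kinases were read throughout, and 9 of 10 were lower in the tumor than in blood while 0 were higher (34.5% and 28.1% of all genes). With plain totals 5 were lower and 1, Jak2, was higher (24.4% and 37.5% of all genes). Ifnar1, the first chain of the type I receptor, was read at 2.74, 2.996 and 2.78 log2 FPKM in bone marrow, 3.61, 3.90 and 3.81 in blood and 2.87, 2.91 and 2.59 in the tumor, with a fall of 0.99 from blood to tumor (adjusted p = 0.000308). Ifnar2 fell by 0.64 from blood to tumor (adjusted p = 0.0127), which was lost with plain totals (log2 fold change -0.19, adjusted p = 0.275), and was also 0.88 below bone marrow (log2 fold change -0.88 ± 0.17 SE, adjusted p = 0.00325).

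The type II receptor chains fell more. Ifngr1 was read at 3.84, 3.805 and 3.99 log2 FPKM in bone marrow, 5.15, 5.13 and 5.11 in blood and 3.57, 3.70 and 3.61 in the tumor, a fall by 1.51 from blood to tumor (adjusted p = 4.2e-06). Ifngr2 fell by 1.69 (adjusted p = 3.0e-05). Ifnlr1, a chain of the type III receptor, had the largest fall of this list, by 1.93 from blood to tumor (adjusted p = 3.5e-05). Jak2 was the 1 gene of this list higher in the tumor than in bone marrow (10%, against 22.4% of all genes), by 1.83 ± 0.22 SE (adjusted p = 0.000232). Its bone marrow libraries all lay below the expression limit, so this p-value is no independent support. Another 6 genes were lower (60%, against 32.9%). With plain totals Ifnar1, Il10rb and Jak2 were higher (30%, against 33.4% of all genes) and 5 were lower (50%, against 21%).

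**Figure D5:**
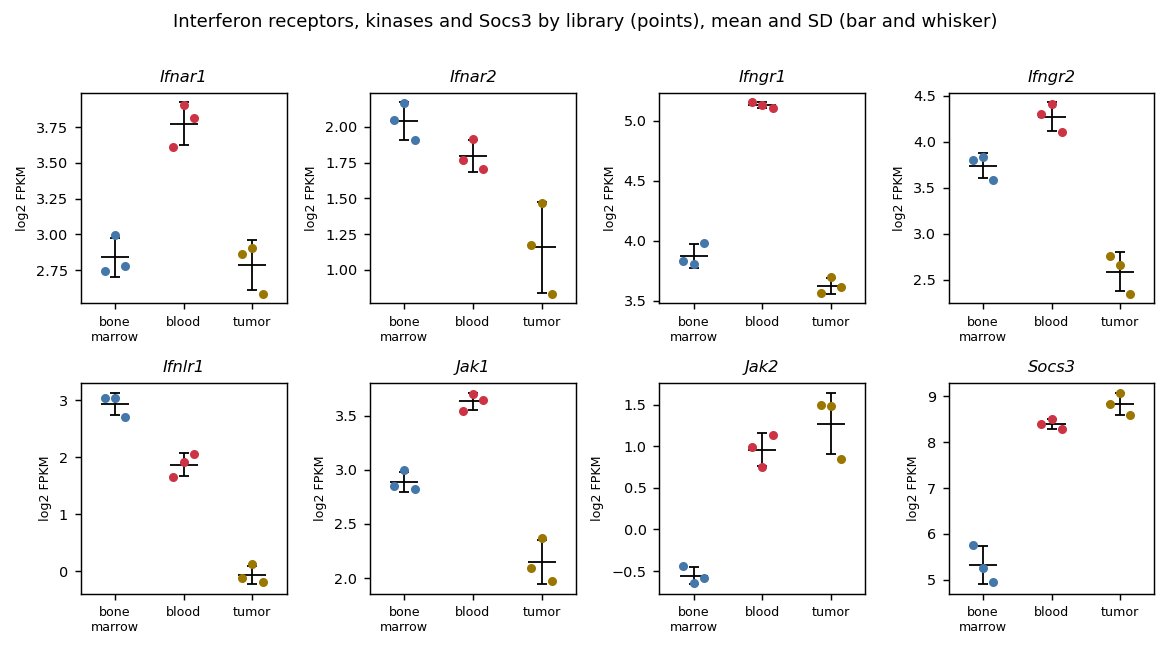
Log2 FPKM of interferon receptor chains, kinases and the feedback inhibitor Socs3 by compartment, with a point for each library and the mean and SD of 3 libraries. Receptor chains and Jak1 are lower in the tumor than in blood, and Jak2 and Socs3 are lowest in bone marrow.

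Of the 9 tested genes that lead to interferon production, 1 was higher in the tumor than in blood (11.1%, against 28.1% of all genes). Another 3 were lower (33.3%, close to the 34.5% of all genes). With plain totals 3 were higher (33.3%, against 37.5%) and 2 lower (22.2%, against 24.4%), both close to the shares of all genes. Ikbke, a kinase that activates Irf3 and Irf7, was 3.21 ± 0.24 SE higher in the tumor than in blood on the log2 scale (adjusted p = 1.8e-05). Myd88, an adaptor of Toll-like receptors, fell by 2.45 (adjusted p = 6.2e-06) and Tlr7, a sensor of single-stranded RNA, by 2.05 (adjusted p = 0.00046). All blood libraries of Ikbke and all tumor libraries of Tlr7 lay below the expression limit, so the p-values of Ikbke and Tlr7 are no independent support. Of the 6 feedback inhibitors 1 was higher in the tumor than in blood (16.7%, against 28.1% of all genes), Ptpn2 by 0.89 (adjusted p = 0.0158). Another 3 were lower (50%, against 34.5%), with Ptpn6 falling by 2.17 (adjusted p = 1.5e-05) and Irf2 by 1.62 (adjusted p = 0.000246). With plain totals 3 were higher (50%, against 37.5%) and 3 lower (50%, against 24.4%). Ptpn2 in blood and Irf2 in the tumor lay below the expression limit in all libraries, and their p-values are no independent support. Socs3, an inhibitor of cytokine receptors, was 3.51 ± 0.21 SE higher in the tumor than in bone marrow (adjusted p = 8.8e-06).

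A list of 53 further interferon-inducible genes, 33 of them tested, was described in the same way. In blood against bone marrow 18 were higher (54.5%, against 20.6% of all genes) and 4 lower (12.1%, against 23.6%), with a median log2 fold change of 0.96, against -0.04 over all genes. In the tumor against blood 5 were higher (15.2%, against 28.1%) and 21 lower (63.6%, against 34.5%), with a median of -0.81, against -0.17 over all genes. With plain totals 6 were higher (18.2%, against 37.5% of all genes) and 13 lower (39.4%, against 24.4%). Against bone marrow 10 were higher in the tumor (30.3%, against 22.4%) and 11 lower (33.3%, close to the 32.9% of all genes), with a median of 0.14, against -0.21 over all genes. With plain totals 16 were higher (48.5%, against 33.4%) and 5 lower (15.2%, against 21% of all genes). Cxcl10, a chemokine for T cells, had 4, 3 and 0 reads in bone marrow, 13, 5 and 4 in blood and 702, 845 and 372 in the tumor, and it was 5.91 ± 1.12 SE higher in the tumor than in blood on the log2 scale (adjusted p = 0.00221). Tgtp1, an IRG GTPase, had 2, 6 and 2 reads in bone marrow, 21, 34 and 10 in blood and 406, 380 and 298 in the tumor (log2 fold change 3.59 ± 0.59 SE, adjusted p = 0.00103), and it has a near-identical copy, Tgtp2, so that its reads are uncertain. Tgtp1 was above the expression limit in the tumor libraries only, and Cxcl10 in these and 1 blood library, so both were tested through the compartment where they are high and their p-values are no independent support. Mov10, an RNA helicase, and Ifi27l2a, a small mitochondrial protein, had the largest falls from blood to tumor, by 2.69 (adjusted p = 6.1e-05) and 2.45 (adjusted p = 1.5e-05).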

How the data were processed

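Neutrophil RNA was amplified by SMARTSeq v2, which does not keep strand, and sequenced paired-end. Per the submitters' processing notes and the study's methods, reads were aligned with STAR 2.5.2b to GRCm38/mm10 and counted with featureCounts 1.5.0 on GENCODE M7. The authors deposited log2 FPKM values for 46517 genes in 9 libraries, with an offset that keeps genes without reads on the scale and with scaled library sizes (edgeR 3.8.6 is named in the notes). For most genes the length behind the FPKM was the genomic span, so levels between genes were compared per exon length. Whole reads were recovered for all 46517 genes (tolerance 0.01 read).

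The fit kept 7794 genes, each above a log2 FPKM of 0 in 3 or more libraries, and used limma 3.58.1 in R 4.3.3 (all 9 libraries, a coefficient for each compartment, eBayes with trend), with Benjamini-Hochberg adjustment over all genes at 0.05. Fold changes are differences of log2 FPKM with no further pseudocount, and errors are SE with n = 3 libraries a compartment. With 3 against 3 an exact two-sided permutation test cannot go below 0.1. Libraries were grouped by their labels, and p-values measure the spread between pools of mice. The paper describes the compartments as sampled from the same mice, but the labels do not link the libraries. The main fit therefore treated the 9 libraries as independent and took no account of shared animals. The members, role groups and lists were chosen with earlier results of these data known. Named members are those with the highest mean in a role, the 2 largest changes of a role in each contrast, and all that were higher or lower in the tumor than in both; other names are members that complete a count, chosen after their values were seen. Pathway genes are the 2 largest rises and falls of each list from blood to tumor, with Ifnb1, Ifng and the receptor chains always named; Jak2, Ifnk and Socs3 were chosen after their values were seen. Gene positions are from GENCODE M21 (GRCm38) and promoters from RefSeq. The steps were tested on simulated data. No column of another sample was present. Markers of dendritic cells (15.4 to 30.5 RPM in bone marrow, 10.9 to 24.3 in blood, 2.39 to 9.26 in the tumor) and endothelium (11.7 to 19.4, 35.2 to 42.8, 71.3 to 112) were also summed. Alternatives covered the filter, pseudocount, scaling, variance model, threshold, a replicate block and leaving out each library.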

Additional observations from a re-analysis of the deposited data

How the results depend on the processing

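The counts of members called and the log2 fold changes of named members were recomputed under 11 other settings and without each library in turn. No called member passed the test in the opposite direction under any of them. Members higher in the tumor than in blood, 4 as reported, were 2 without the filter, with a filter at log2 FPKM over 2 and with a fold change of at least 1 on the log2 scale, 9 with quantile normalization, and 8 with plain library totals and with limma-voom on the recovered reads. The same numbers held for members higher in the tumor than in both other compartments, a count added after seeing the data. In the main fit 16.5% of all genes were higher than both. All genes higher in the tumor than in blood were 2194 of 7794 in the main fit and 4611 of 46517 without the filter. They were 918 of 3514 with the filter over 2 and 1782 of 7794 with the fold limit. Quantile normalization gave 2183 of 7794, plain totals 2923 of 7794 and limma-voom 5871 of 17714. Members lower in the tumor than in bone marrow, 12 as reported, were 7 without the filter and 6 with plain totals and with the fold limit. All genes lower there were 2566 of 7794 in the main fit and 2574 of 46517 without the filter. Plain totals gave 1634 of 7794 and the fold limit 1713. Members lower in the tumor than in both, a count also added later, were 9 in the main fit. In that fit 23.7% of all genes were lower than both. These members were 5 without the filter and 3 with plain totals and with the fold limit. With the fold limit 1 member was lower in blood than in bone marrow, against 3 (1208 and 1841 of 7794 genes). With a library left out, the 4 rises from blood to tumor ranged from 2 to 6 (2 without blood replicate 3 or tumor replicate 1, with Ifit2 and Gbp3 lost in each), the 22 falls from 20 to 24, the 21 rises against bone marrow from 19 to 24, the 12 falls from 7 to 11 (7 without bone marrow replicate 1 or 2), the 33 rises from bone marrow to blood from 30 to 35, the 3 falls from 2 to 3, the members above both from 2 to 6 and those below both from 5 to 10 (5 without bone marrow replicate 1 or 2).

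The differences that changed sign had not passed the test, except Oas1a. From blood to tumor, with quantile normalization, the log2 fold changes were 0.28 for Gbp2, 0.21 for Igtp and 0.15 for Oasl1. With plain totals they were 0.30 for Gbp2, 0.38 for Ifih1, 0.22 for Igtp, 0.18 for Isg20 and 0.28 for Oasl1. Against bone marrow Ifitm1 was 0.19 with quantile normalization and 0.33 with plain totals, and with plain totals Oas1a was 0.0873 and Slfn4 0.0747. With a library left out, Ifih1 ranged from -0.26 to 0.0889, Ifit1 from -0.0265 to 0.17 and Ifit3 from -0.0863 to 0.32 from blood to tumor, Ifitm1 from -0.35 to 0.0782 against bone marrow and Dhx58 from -0.24 to 0.0302 from bone marrow to blood. The causes were not tested.

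With the replicate block the tumor had 6 members higher and 25 lower against blood and 21 and 12 against bone marrow, and blood had 33 and 3 against bone marrow. Of 7794 genes, 2167 were then higher and 2684 lower in the tumor than in blood. Against bone marrow the tumor had 1708 and 2533, and blood 1578 and 1805. The block added Ifi47 and Usp18 to the rises and Eif2ak2, Parp14 and Trim25 to the falls from blood to tumor. Same-numbered libraries had correlations of their deviations from -0.07 to 0.11 over all genes and from -0.19 to 0.64 over the 44 members. They were not above 0.1 in every pair in either set, so the numbers were not taken to pair the libraries. Over the members, however, same-numbered blood and tumor libraries had correlations of 0.64, 0.44 and 0.43, and differently numbered ones of -0.44 to 0.06. Same-numbered pairs with bone marrow ran from -0.19 to 0.47. Replicate 3 was also lowest for most members in each compartment, and the labels do not say whether a number marks an experiment. The pathway, neighbour and overlap counts with plain totals were added after seeing the data. Depth limits Bst2, Gbp5, Ifi44, Mx1 and Mx2 most.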

Other observations

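The share of the members' reads taken by each role differed between compartments. Schlafen genes took 44.8% ± 0.6 (SD, n = 3 libraries) of the reads on the 49 members in bone marrow, 35.4% ± 2.6 in blood and 37.4% ± 2.4 in the tumor, most of it from Slfn4. GBP and IRG genes took 2.34% ± 0.06 in bone marrow, 6.83% ± 0.26 in blood and 11.5% ± 1.4 in the tumor, and the 3 compartments did not overlap. Ifit genes took 0.636% ± 0.071, 1.60% ± 0.30 and 3.73% ± 0.18 in the same order, again without overlap. Ifitm genes took 16.5% ± 1.2, 9.61% ± 1.04 and 4.49% ± 1.15, without overlap, and Ifitm6 alone took 10.98% ± 0.61, 0.733% ± 0.154 and 0.916% ± 0.591 of it. Ifitm1, Ifitm2 and Ifitm3 together took 5.54% ± 0.61 in bone marrow, 8.88% ± 1.00 in blood and 3.58% ± 0.56 in the tumor, so that without Ifitm6 the share was highest in blood. OAS genes took 10.5% ± 0.6, 19.2% ± 1.4 and 12.5% ± 0.4. These shares do not depend on the library scaling, and they add to 100% within a library, so a higher share of 1 role lowers the others. No test was run on them.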
